A study of Homo sapiens with 4 samples.

Results

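The genes described here are the NFAT transcription factors, the subunits of the phosphatase calcineurin and the calcineurin regulator RCAN1, 9 of the 60725 genes in the count table. NFATC2 was selected on its measured rise in these same libraries, where it stood among the largest, and NFATC1, NFATC3, NFATC4, NFAT5, RCAN1, PPP3CA, PPP3CB and PPP3R1 were taken with it as its relatives and partners. Of these 9 genes, 8 had at least 10 reads in at least 2 libraries and so were among the 15356 genes tested. NFATC1 did not pass. NFATC2 passed through the libraries in which it was high, since only 1 Control library reached 10 reads.

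RNA was sequenced from RPE1 cells, a telomerase-immortalized line from human retinal pigment epithelium, that express the SunTag system, an array of peptide tags read by an antibody fragment. Control cells (titled scramble) received 10 nM of the siRNA Silencer Select Negative Control No. 2, and TOP2B KD cells received 10 nM of a Dharmacon pool of siRNAs against TOP2B, a DNA topoisomerase. Both groups were transfected again after 48 h and harvested 72 h later, on day 5, and each had 2 biological replicates. The question was how gene expression changed when TOP2B was depleted. The labels name no other control siRNA but also speak of 2 of them, so that the control reagent of each library is not certain. The groups differed in the siRNA reagent as well as in TOP2B, and these cannot be told apart. The RNA came from whole cultures, in which fewer cells expressing a gene and less RNA per cell cannot be told apart.

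Calcineurin is a calcium-activated phosphatase made of a catalytic A subunit and a regulatory B subunit. When calcium and calmodulin activate it, it removes phosphates from the NFATC factors, which then enter the nucleus and bind DNA, often with partners such as AP-1. NFAT5 is the divergent member of the family, lacks the calcineurin docking region and is known for the response to high salt, while proteins of the RCAN family bind calcineurin and restrain it. The pathway is best known from lymphocytes, and it also acts in heart, bone and vessel cells.

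Total counts were between 20310259 and 23887013 per library, so that 1 CPM (the usual unit of counts scaled to library size, here with the TMM correction for library composition) rested on 20.2 to 23.9 reads. TOP2B itself had 154.9 and 143.5 CPM in Control and 15.3 and 13.3 CPM in TOP2B KD, which left 9.58% of the Control level. The labelled cell type was carried by few of its differentiation markers. Of 11 retinal pigment epithelium genes, RPE65, TYR and TTR had 0 counts in every library, while MITF stood at 38.2 to 44.8 CPM and OTX2 at 11.2 to 13.4 CPM. The summed level of the 11 genes was 51.4 to 53.6 CPM in Control and 61.0 to 61.6 CPM in TOP2B KD. Because NFATC2 is known from immune cells, lymphocyte markers were measured too. Their 8 genes summed to 0.251 and 0.570 CPM in Control and 0.142 and 0.446 CPM in TOP2B KD, with 4 of them at 0 counts in every library. The 6 myeloid and mast cell markers summed to 2.55 to 3.20 CPM over the 4 libraries, most of it from CSF1R with 2.13 to 3.07 CPM. The 5 endothelial markers summed to 1.62 to 2.13 CPM in Control and 1.19 to 1.42 CPM in TOP2B KD. The 6 epithelial and mesenchymal structural markers summed to 3190 and 3523 CPM in Control and 3033 and 3438 CPM in TOP2B KD.

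One sequence feature is shown first because NFATC2 holds more copies of it than its relatives do, a count not corrected for length. The 6-base word GCAACC had been picked out earlier on these same libraries, as a word common in the 3′ UTRs of genes that were higher in TOP2B KD, so its presence in NFATC2 is given as a description alone. In the canonical transcripts of the GENCODE v44 annotation of GRCh38, searched on the transcribed strand, the word occurs 3 times in the 4533-base 3′ UTR of NFATC2. It occurs once each in the 3′ UTRs of NFATC1, NFATC4, NFAT5 and PPP3CA, and is not found in those of NFATC3, RCAN1, PPP3CB and PPP3R1. The window of NFATC1, which was not tested, is not shown. Each window below has 30 bases, written 5′ to 3′ along the transcript, with the word in capitals.
NFATC2, chr20:51390926-51390955, minus strand: ggagttctcagaGCAACCaaaggaacgtga
NFATC2, chr20:51390400-51390429, minus strand: agaagggctaaaGCAACCaagaaaagaagt
NFATC2, chr20:51389664-51389693, minus strand: gtgcacttgtatGCAACCtgtcggtcgata
NFATC4, chr14:24377717-24377746, plus strand: tgtcatcacctgGCAACCccagccccagcc
NFAT5, chr16:69702507-69702536, plus strand: tatgtagtatgtGCAACCagtggttctcag
PPP3CA, chr4:101023619-101023648, minus strand: ctaaaaaaagtgGCAACCaaggaaaatatt

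Of 12385 tested genes whose 3′ UTR had 50 bases or more, 23.6% held the word at least once and 2.07% held it at least 3 times. The 3′ UTR of NFATC2 was long beside the median of 1376 bases, and a longer sequence has more room for any word. Among the relatives with a single copy, it was longer than those of NFATC1 (1746 bases), NFATC4 (1896) and PPP3CA (2447) and shorter than that of NFAT5 (8303).

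NFATC2 (ENSG00000101096, chromosome 20 from 51386957 to 51562831 on the minus strand of GRCh38), a calcium-responsive factor that drives cytokine genes in T cells, was close to the limit of detection in Control and clearly detected in TOP2B KD. It had 8 and 11 reads in the Control replicates and 50 and 52 reads in the TOP2B KD replicates. These are 0.334 and 0.483 CPM against 2.36 and 2.58 CPM. The TOP2B KD libraries were both several times above both Control libraries, and the exact Poisson 95% intervals of the reads, which cover counting error only, were 3.45 to 15.8 and 5.49 to 19.7 in Control and 37.1 to 65.9 and 38.8 to 68.2 in TOP2B KD. The fitted log2(fold change) was 2.58 (SE 0.36), with an interval from 1.79 to 3.38. No p is given, because the gene was chosen by this change. The intervals make no allowance for that choice either, so they are a description and no test of the rise. None of its exon bases are shared with another annotated gene.

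The rise of NFATC2 was large but its level stayed low. Called genes whose mean CPM was 1 or more and whose groups were fully apart were put in order of log2(fold change), and NFATC2 was number 4 of these 1618. This place restates the rise by which NFATC2 was chosen. CTSS, a lysosomal cysteine protease, stood just above it with a log2(fold change) of 2.62 and 126 and 77 reads in Control against 589 and 511 in TOP2B KD. THBS1-IT1, a non-coding transcript within the thrombospondin gene THBS1, stood just below with 2.44 and 17 and 19 reads against 78 and 96. The fold of NFATC2 had the widest error of these 3 genes, with an SE of 0.36 beside 0.20 for CTSS and 0.30 for THBS1-IT1. The genes whose centred log2 CPM over the 4 libraries lay nearest to that of NFATC2, out of 13326 searched, were THBS1-IT1, the histone gene H2BC12 and the cystatin gene CST1, at Euclidean distances of 0.240, 0.372 and 0.394. H2BC12 and CST1 belong to families of closely similar genes, so that their counts are uncertain. With 4 libraries in 2 groups, this likeness mostly restates a fold change of like size.

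**Figure D1:**
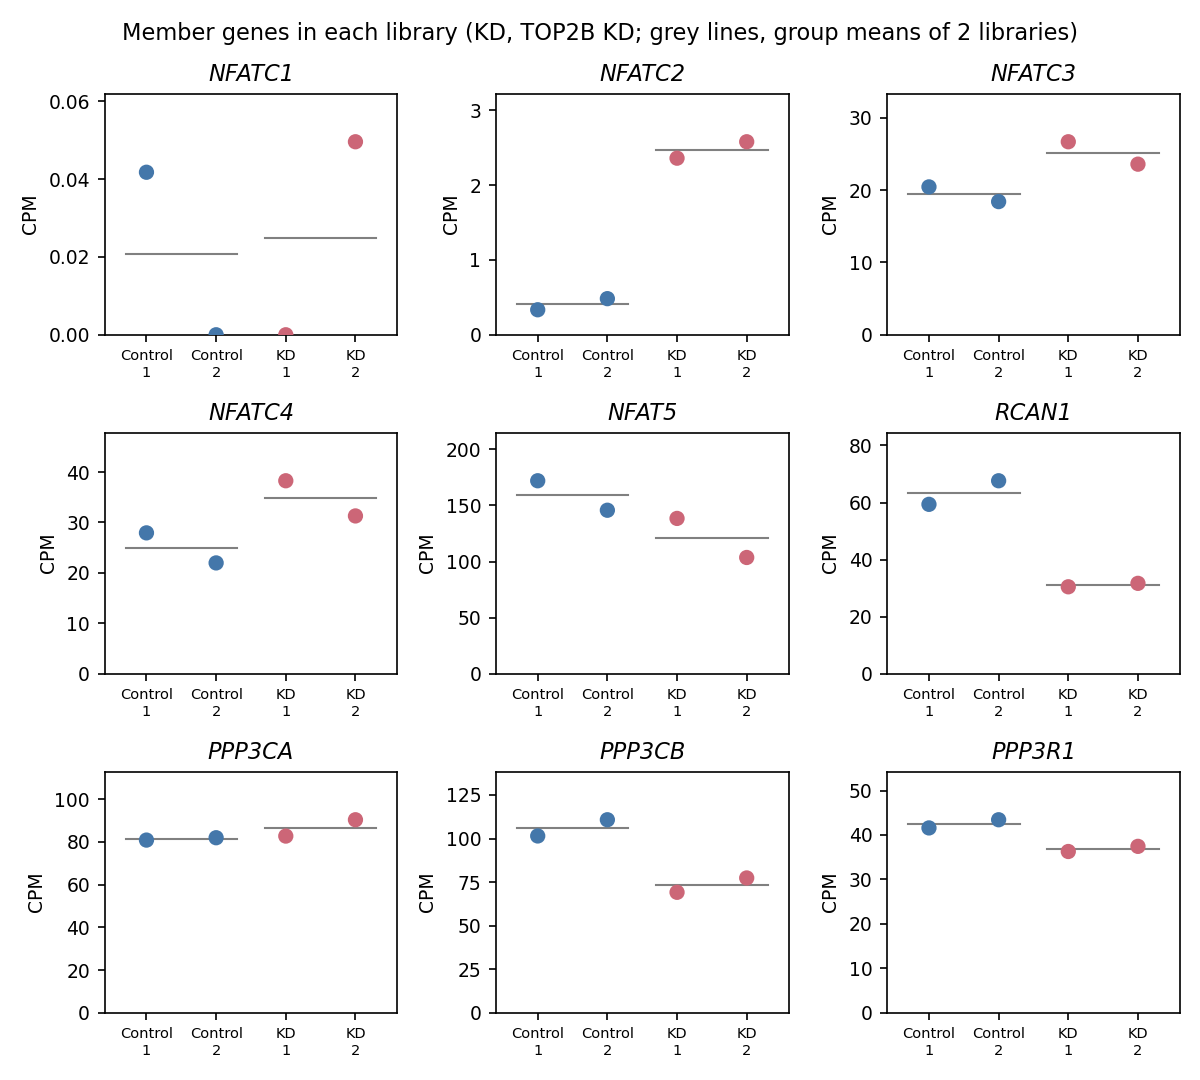
CPM (y axis, from 0, a separate scale for each gene) of the 9 genes in the 2 Control (blue) and 2 TOP2B KD (red) libraries, with grey lines at the group means. NFATC2 rises from 0.334 and 0.483 to 2.36 and 2.58 CPM, RCAN1 falls from 59.4 and 67.6 to 30.5 and 31.7 CPM, and NFATC1 has at most 1 read in any library.

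NFATC1 (ENSG00000131196), the factor best known from T cells, osteoclasts and heart valves, was not detectable at this depth. It had 1 and 0 reads in Control and 0 and 1 in TOP2B KD. By exact Poisson 95% intervals, a count of 0 allows up to 3.69 reads in a library and a count of 1 up to 5.57. No fold is given for it.

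NFATC3 (ENSG00000072736, chromosome 16 from 68084751 to 68229259), a broadly expressed family member, had 20.5 and 18.4 CPM in Control and 26.7 and 23.6 CPM in TOP2B KD. Both TOP2B KD libraries were above both Control libraries, with a gap about as wide as the distance between the TOP2B KD replicates. Its mean went from 19.4 ± 1.44 to 25.2 ± 2.19 CPM (SD, n = 2), a log2(fold change) of 0.37 (SE 0.14) that did not pass the quasi-likelihood test of edgeR (adjusted p = 0.118). Of its exon bases, 36.3% are shared with other annotated genes. The largest overlap is with ENSG00000262160, which had 0 counts in every library.

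NFATC4 (ENSG00000100968, chromosome 14 from 24365673 to 24379604), known from heart muscle and neurons, had 27.9 and 22.0 CPM in Control and 38.3 and 31.3 CPM in TOP2B KD. The groups did not overlap, although the lower TOP2B KD library was only slightly above the higher Control library. The log2(fold change) was 0.48 (SE 0.16), with an adjusted p of 0.0841 by edgeR's quasi-likelihood test, so that NFATC4 was not called. Without Control replicate 1 or without TOP2B KD replicate 2 it was called higher, with 0.66 (adjusted p = 0.0147) and 0.60 (adjusted p = 0.0276) by the same test. Without the other Control or TOP2B KD library it was not, and the fits on 3 libraries ranged from 0.32 to 0.66.

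NFAT5 (ENSG00000102908, chromosome 16 from 69565094 to 69704666) had the highest level of the family in every library. It had 172 and 145.7 CPM in Control and 138.4 and 103.6 CPM in TOP2B KD. The TOP2B KD libraries were both below the Control libraries, and the replicates within a group also lay well apart. The log2(fold change) was -0.39 (SE 0.16), with an interval from -0.75 to -0.04 for this gene alone, and it did not pass the edgeR quasi-likelihood test over all genes (adjusted p = 0.148). NFATC3, NFATC4 and NFAT5 were each higher in replicate 1 than in replicate 2 in both groups.

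Per kb of annotated exon, the NFAT family together stood at 14.2 and 11.9 CPM per kb in Control and 14.7 and 11.8 CPM per kb in TOP2B KD, so that the sums of the groups overlapped. The shares of the single factors in that sum are given as values only, since no test was made of them and NFAT5, NFATC4 and NFATC3 were not called. NFAT5 held 59.9% and 60.2% of the family sum in Control and 46.5% and 43.2% in TOP2B KD. NFATC4 went from 23.4% and 21.8% to 30.9% and 31.4%, and NFATC3 from 16.4% and 17.5% to 20.7% and 22.7%. NFATC2 went from 0.285% and 0.488% to 1.94% and 2.63%, and so was still the lowest of the 4 detected factors after its rise. On this scale the order in both groups was NFAT5, NFATC4, NFATC3, NFATC2, with no overlap between neighbours within a group. The order was the same per kb of the canonical transcript.

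**Figure D2:**
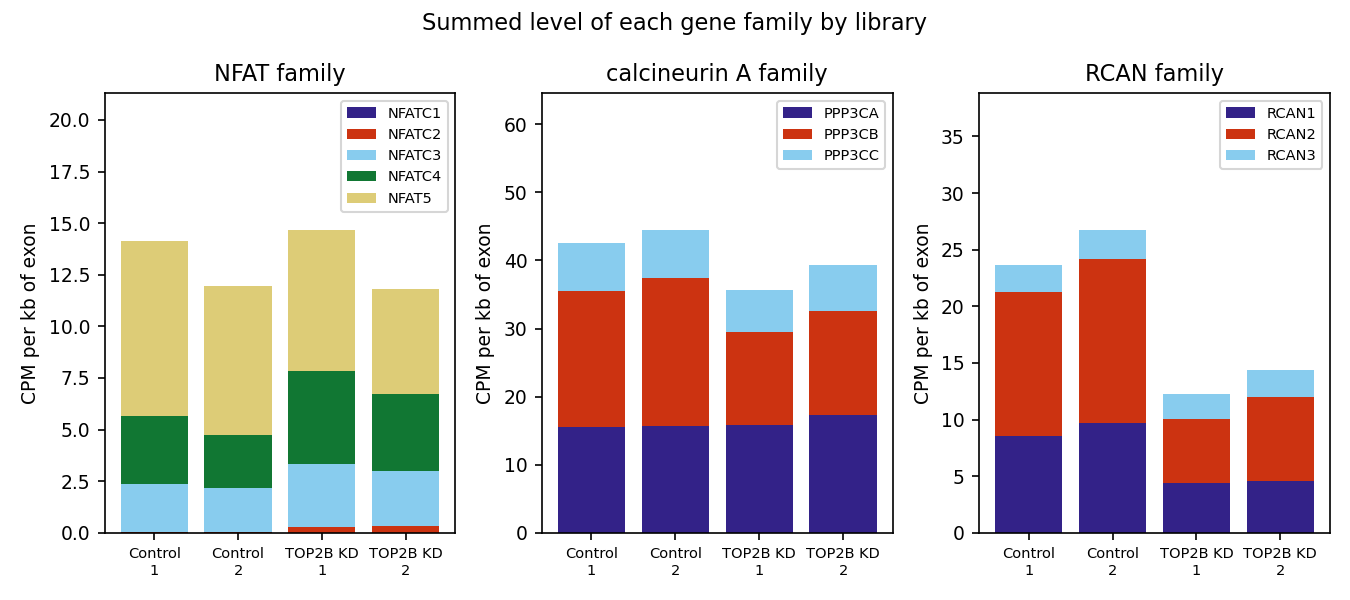
Stacked CPM per kb of annotated exon (y axis, from 0) for the NFAT, calcineurin A and RCAN gene families in each of the 4 libraries, with 1 colour per gene in each panel. The NFAT sums lie between 11.8 and 14.7 in both groups, while the RCAN sums are 23.7 and 26.8 in Control and 12.3 and 14.4 in TOP2B KD.

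Of the 2 catalytic subunit genes in the set, PPP3CB was called lower and PPP3CA was not called, and the difference between their changes was not tested. PPP3CB (ENSG00000107758, chromosome 10 from 73436433 to 73496024), the beta isoform, had 101.5 and 110.8 CPM in Control and 69.1 and 77.4 CPM in TOP2B KD. The gap between the groups was wider than the spread within either. Its mean went from 106.1 ± 6.57 to 73.2 ± 5.82 CPM (SD, n = 2), a log2(fold change) of -0.53 (SE 0.12) that passed the edgeR quasi-likelihood test (adjusted p = 0.0228). Each alternative that used all 4 libraries kept the call, while 2 of the fits without a library lost it and kept the direction. A fit on 3 libraries has less power, so this does not show that single libraries carried the call. Leaving out Control replicate 2 gave -0.47 (adjusted p = 0.118) and leaving out TOP2B KD replicate 1 gave -0.45 (adjusted p = 0.171), both by edgeR's quasi-likelihood test.

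PPP3CA (ENSG00000138814, chromosome 4 from 101023409 to 101348278), the alpha isoform of the catalytic subunit, had 80.9 and 82.0 CPM in Control and 82.8 and 90.4 CPM in TOP2B KD. The lower TOP2B KD library was nearly level with the Control libraries. The log2(fold change) was 0.09 (SE 0.12), with an interval from -0.17 to 0.35 and an adjusted p of 0.683 by edgeR's quasi-likelihood test. PPP3CC, the gamma isoform, is no member of the set and had 20.6 and 20.3 CPM in Control and 18.1 and 19.6 CPM in TOP2B KD.

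PPP3R1 (ENSG00000221823, chromosome 2 from 68178857 to 68256237), the regulatory B subunit that binds calcium, had 41.6 and 43.4 CPM in Control and 36.3 and 37.4 CPM in TOP2B KD. Both TOP2B KD libraries were below both Control libraries by a small margin. Its log2(fold change) of -0.21 (SE 0.12, interval -0.47 to 0.06) did not pass the edgeR quasi-likelihood test (adjusted p = 0.304). Of its exon bases, 34.5% are shared with other annotated genes, most of all with ENSG00000273275, which had 0 counts in every library. PPP3R2, the other B subunit gene, which is known from testis, had 0 counts in every library.

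The 3 catalytic subunit genes together stood at 42.6 and 44.5 CPM per kb of exon in Control and 35.7 and 39.3 in TOP2B KD. The share of PPP3CB in that sum was 46.9% and 48.9% in Control and 38.1% and 38.7% in TOP2B KD. Per kb of exon, PPP3CB was above PPP3CA in Control and below it in TOP2B KD. This order depends on the length used, since per kb of the canonical transcript PPP3CB had 20.8 CPM per kb and PPP3CA 18.3 in TOP2B KD, so that PPP3CB was the higher in both groups.

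RCAN1 (ENSG00000159200, chromosome 21 from 34513142 to 34615113 on the minus strand), which binds and inhibits calcineurin and is itself induced through NFAT in many cells, was the member that fell most. It had 1422 and 1542 reads in Control and 646 and 639 reads in TOP2B KD, or 59.4 and 67.6 CPM against 30.5 and 31.7 CPM. The TOP2B KD replicates were nearly identical and lay far below both Control replicates. The log2(fold change) was -1.03 (SE 0.12), with an adjusted p of 0.00152 by the quasi-likelihood test of edgeR, and the 4 fits that each left out a library gave -1.12 to -0.93, all called. Of its exon bases, 13.2% overlap other annotated genes, and the gene with the largest overlap is not in the count table. Besides the fall of RCAN1, RCAN2, a second gene of this inhibitor family, went from 48.2 and 54.8 CPM to 21.4 and 28.2 CPM. The log2(fold change) of RCAN2 was -1.06 (SE 0.15, adjusted p = 0.0030 by edgeR's quasi-likelihood test), while RCAN3 had 17.6 and 18.5 CPM in Control and 15.9 and 17.2 CPM in TOP2B KD. The 3 RCAN genes together had 23.7 and 26.8 CPM per kb of exon in Control and 12.3 and 14.4 in TOP2B KD. RCAN2 was the highest of the 3 on that scale and RCAN1 the highest per kb of the canonical transcript, in both groups.

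Of the 8 tested members, NFATC2 was called higher, RCAN1 and PPP3CB were called lower and 5 were not called, beside 10.8% of all tested genes called in either direction, 6.66% called higher and 4.18% called lower. All 8 had groups that did not overlap in CPM, beside 54.3% of all tested genes. NFATC2 was chosen by this contrast and the others as its relatives, so nothing is read from these numbers. The median log2(fold change) of the 8 was -0.06, that of the 7 without NFATC2 was -0.21, and that of all tested genes was -0.0029.

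**Figure D3:**
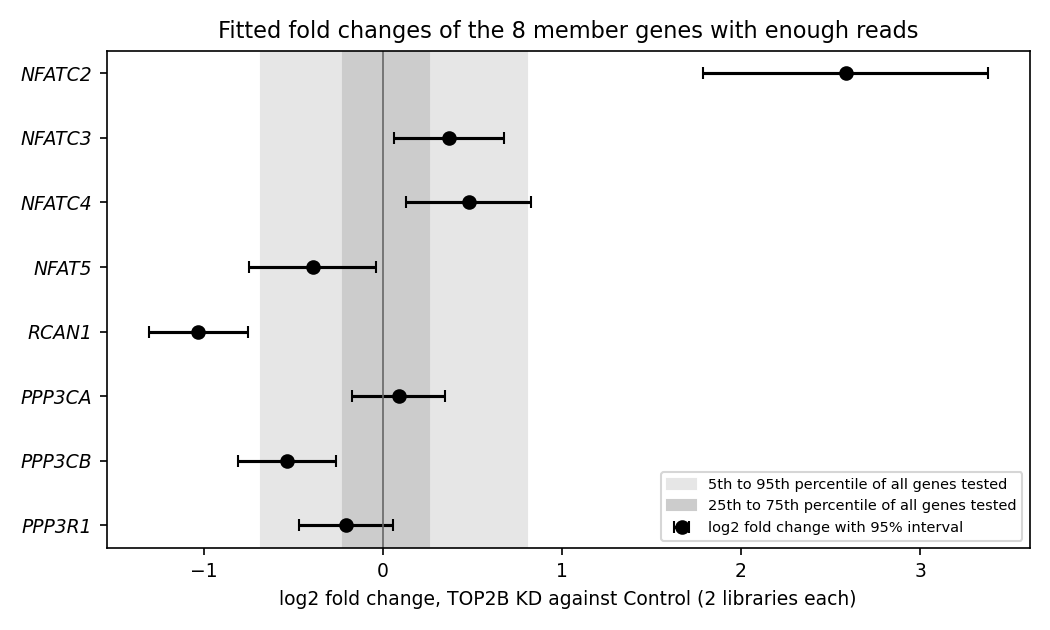
Fitted log2(fold change) of TOP2B KD against Control (x axis) for the 8 genes with enough reads, as points with 95% intervals from edgeR, over grey bands that span the 5th to 95th and the 25th to 75th percentile of all 15356 tested genes. The points of NFATC2 (2.58) and RCAN1 (-1.03) lie outside the wider band, and the other 6 lie inside it.

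The rest of the calcineurin pathway was described through lists of genes written from general knowledge. Together they held 109 genes, of which 79 were tested, 7 were called higher and 7 lower, beside 6.66% and 4.18% of all tested genes, with a median log2(fold change) of 0.01. PLCG2, CSF2 and S100A4 reached 10 reads in 2 libraries only through the group in which they were high. These totals include them, with PLCG2 among the higher calls and S100A4 among the lower, so nothing is read from the totals. Counts and medians of their lists are also given without them. In the list of other calcineurin subunits, inhibitors and anchors, 9 of 13 genes were tested, with 1 called higher and 1 lower, beside the same shares of all tested genes, and a median of -0.12. The lower gene was RCAN2, as given above. The higher gene was CIB1, a calcium-binding protein related to the B subunit, with 28.1 and 34.0 CPM in Control and 41.3 and 48.0 CPM in TOP2B KD, a log2(fold change) of 0.53 (adjusted p = 0.0410 by edgeR's quasi-likelihood test). Its call was lost without Control replicate 1 (0.40, adjusted p = 0.209 by edgeR) or TOP2B KD replicate 2 (0.40, adjusted p = 0.201 by edgeR). PPIA and FKBP1A, which encode the proteins that carry cyclosporin A and FK506 to calcineurin, had log2(fold changes) of -0.15 and -0.11 and were not called.

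Among the kinases that rephosphorylate NFATC proteins and the factors of their nuclear import and export, 0 of 16 tested genes were called by edgeR. Of all tested genes, 10.8% were called in either direction. At an unadjusted p below 0.05, 1 of the 16 was lower and 0 were higher. The share of all tested genes at that p is not given, so nothing is read from this. The Wald test of DESeq2 called 0 of the 16, beside 917 genes higher and 645 lower in the whole count table. How many genes had an adjusted p from DESeq2 is not given, so nothing is read from this count either. The median log2(fold change) of this list was 0.02. The importin gene KPNB1 and the exportin gene XPO1, its members with the highest levels, had log2(fold changes) of 0.00 and 0.07. The sign of KPNB1 turned with the scaling.

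Upstream of calcineurin, in the list of store-operated calcium entry and calcium release, 23 of 26 genes were tested, 4 were called higher and 2 lower, beside 6.66% and 4.18% of all tested genes, and the median was 0.07. Without PLCG2 there were 3 higher and 2 lower of 22, with a median of 0.02. PLCB4, a phospholipase that makes the second messenger IP3, had 115.2 and 155.7 CPM in Control and 46.5 and 52.6 CPM in TOP2B KD, a log2(fold change) of -1.45 (adjusted p = 0.00091 by edgeR's quasi-likelihood test). Its relative PLCB3 went the other way, from 72.9 and 64.4 CPM to 113.7 and 109.6 CPM, with 0.70 (adjusted p = 0.0068 by edgeR). ITPR3, an IP3 receptor that releases calcium from the endoplasmic reticulum, had 255.9 and 220.6 CPM in Control and 495.4 and 413.6 CPM in TOP2B KD, a log2(fold change) of 0.93 (adjusted p = 0.0052 by edgeR). These 3 calls held in each fit without a library.

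The other 3 calls of that list did not. RYR2, a calcium release channel best known from heart muscle, had 3.09 and 3.64 CPM in Control and 5.99 and 5.65 CPM in TOP2B KD (log2(fold change) 0.79), and its call was lost without Control replicate 1, without either TOP2B KD replicate and with DESeq2. ATP2B4, a calcium pump of the plasma membrane, went from 544.2 and 465.4 CPM to 367.7 and 297.6 CPM (log2(fold change) -0.60), and its call was lost without Control replicate 1 or TOP2B KD replicate 2. PLCG2, a phospholipase of blood cells, had 3 and 2 reads in Control and 12 and 10 in TOP2B KD, a ratio of 4.97 with a counting interval from 1.84 to 16.8, and its call was lost in each of the 4 fits without a library. It passed the filter through TOP2B KD alone. With so few reads in Control it could be tested only if it was higher in TOP2B KD, and nothing is read from its ratio. The most abundant uncalled genes of the list were the calcium pump gene ATP2A2 and the calmodulin gene CALM2, with log2(fold changes) of -0.02 and -0.27.

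Genes described as targets of the NFATC factors were mostly at or near 0 counts. Of 24 such genes, 16 were not tested, and 7, among them IL2, IL4 and IFNG, had 0 counts in every library. Of the 8 tested genes, 1 was called higher and 0 lower by edgeR, beside 6.66% and 4.18% of all tested genes, the median was 0.29, and at an unadjusted p below 0.05 there were 3 higher and 0 lower. One of these 3 was CSF2, with 6 and 7 reads in Control and 11 and 27 in TOP2B KD, which passed the filter through TOP2B KD alone. Without it the median of the other 7 was 0.24, with 2 higher and 0 lower at that p. The share of all tested genes at that p is not given, so nothing is read from these counts. DESeq2 called 0 of the list, beside 917 genes higher and 645 lower in the whole count table, a background without a stated share. Other edgeR settings called more of the list, 4 higher without a filter on low counts and 6 higher with the replicate block, with 0 lower in both. These settings also called more of all genes, 1358 and 3440 higher, so nothing is read from the list counts. The gene called higher in the main edgeR fit was PTGS2, which encodes the prostaglandin synthase COX-2. It had 15 and 11 reads in Control and 28 and 33 reads in TOP2B KD, a log2(fold change) of 1.40 (adjusted p = 0.0400 by edgeR's quasi-likelihood test). This call was lost without Control replicate 2 (adjusted p = 0.154 by edgeR) or TOP2B KD replicate 2 (adjusted p = 0.143 by edgeR), and DESeq2 gave no adjusted p for it. The tissue factor gene F3 and the metalloprotease gene ADAMTS1, the most abundant of the list, had log2(fold changes) of 0.14 and -0.10. RCAN1, itself induced through NFAT in many cells, was kept among the members and is not in this list. It was called lower, with a log2(fold change) of -1.03 (adjusted p = 0.00152 by edgeR's quasi-likelihood test). The counts and medians of the list therefore depend on where RCAN1 was placed.

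Of 11 genes described as targets of NFAT5 in the response to high salt, 8 were tested, 0 were called higher and 3 lower, beside 6.66% and 4.18% of all tested genes, with a median log2(fold change) of -0.51. DESeq2 called 0 higher and 3 lower, beside 917 genes higher and 645 lower in the whole count table. The share behind these DESeq2 totals is not given, so nothing is read from the list count. At an unadjusted p below 0.05 there were 0 higher and 4 lower. Nothing is read from this, as the share of all tested genes at that p is not given. S100A4, a calcium-binding protein, had 41 and 51 reads in Control and 8 and 13 reads in TOP2B KD, a log2(fold change) of -1.94 (adjusted p = 0.0127 by edgeR) that was called in each fit without a library. It passed the filter only through Control, where it was high, so nothing is read from its call. Without it 2 of 7 genes were lower and the median was -0.35. SLC6A6, the taurine transporter, had 160.9 and 112.4 CPM in Control and 93.2 and 76.4 CPM in TOP2B KD, with -0.69 (adjusted p = 0.0349 by edgeR). The heat shock gene HSPA1B, which has a near-identical copy in HSPA1A and so uncertain reads, had 54.2 and 43.6 CPM against 34.7 and 27.0 CPM, with -0.66 (adjusted p = 0.0266 by edgeR). Both of the latter calls were lost without Control replicate 1 or TOP2B KD replicate 2. SLC38A2, an amino acid transporter, and AKR1B1, aldose reductase, which makes sorbitol, were not called, with log2(fold changes) of -0.35 and 0.12.

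**Figure D4:**
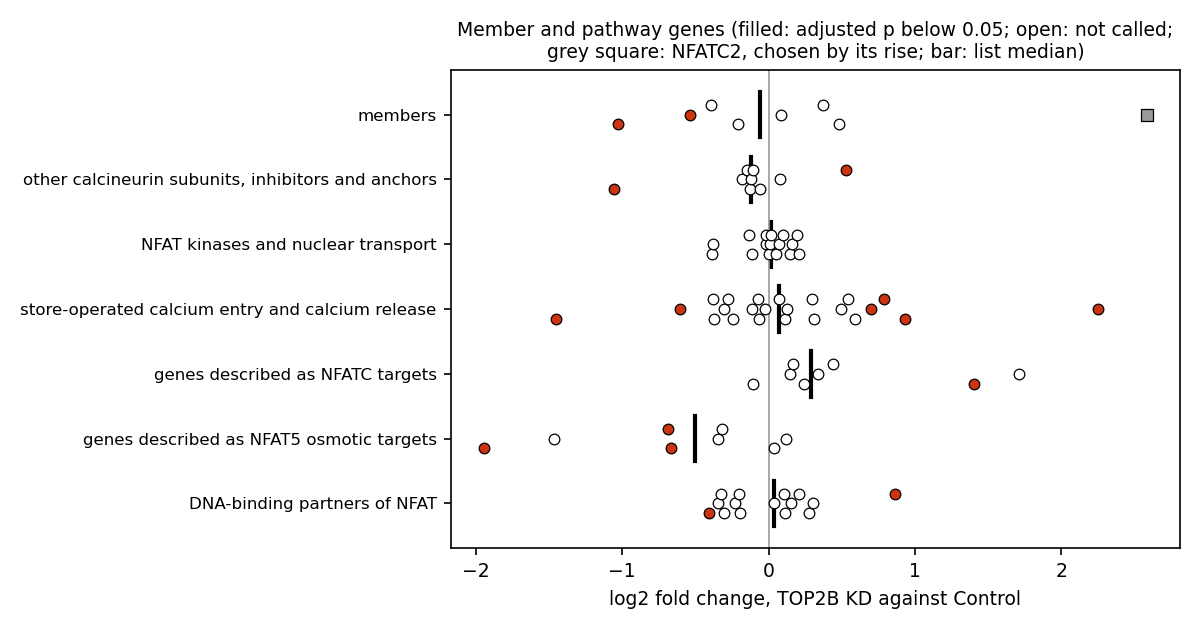
Log2(fold change) of TOP2B KD against Control (x axis) for each tested gene of the member set and of the 6 pathway lists (1 row each), filled where the adjusted p of edgeR was below 0.05 and open where it was not, with NFATC2 as a grey square and a bar at the median of each list. The medians run from -0.51 for genes described as NFAT5 targets to 0.29 for genes described as NFATC targets. Without S100A4 and CSF2, which passed the filter only through the group where they were high, these medians are -0.35 and 0.24. The filled points of the NFAT5 row include S100A4, from which nothing is read. The other 2 calls of that row were lost without Control replicate 1 or TOP2B KD replicate 2.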

How the data were processed

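RNA-seq counts were analysed for 2 Control and 2 TOP2B KD libraries of polyA RNA. The authors checked the single-end reads with FastQC 0.11.6, aligned them to GRCh38 (no-alt analysis set) with STAR 2.5.4a and counted reads per gene while mapping, with Gencode v24. The deposited values are these raw counts, without normalization. The 4 further columns of the file repeat the first 4 with identical values and were not used. Whether the counting used strand is not stated, and the column names carry a stranded paired-end tag. The counts of genes that overlap another gene on either strand are therefore uncertain, also where the other gene had 0 counts.

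The 15356 genes that reached 10 counts in 2 or more libraries were tested with edgeR 4.0.16 in R 4.3.3 (glmQLFit and glmQLFTest, TMM, condition as the only term, two-sided, Benjamini-Hochberg over all tested genes). Calls were made at an adjusted p under 0.05. The common dispersion was 0.0117, and a prior count of 2 entered log2 CPM. Intervals of fold changes are 95% intervals from that fit, and those of reads cover counting error only. Symbols, positions and 3′ UTRs came from GENCODE v44, which held 98.9% of the tested genes and is a later release than the one counted. Exact Poisson and binomial intervals came from scipy 1.17.1. The fit was tested on simulated data.

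The members and lists were chosen with earlier results of these data known. Named were the 9 members, TOP2B, in each pathway list every called gene and the 2 uncalled genes with the highest mean CPM, the neighbours of NFATC2 in the order of fold changes, and the 3 genes nearest to it in pattern. RCAN3, PPP3CC, PPP3R2, CSF2, CSF1R, IL2, IL4 and IFNG were named beside them after their values were seen, as were the retinal markers. The alternatives were DESeq2 1.42.0 (Wald test, all genes), its size factors in edgeR, no filter, no TMM, a replicate block and fits without each library.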

Additional observations from a re-analysis of the deposited data

How the results depend on the processing

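RCAN1 was called lower and PPP3CA was not called under each alternative, and NFATC2 kept its direction, with a log2(fold change) between 2.34 and 2.86 in the fits without a library. Those fits rest on 3 libraries and assume that the lone library of a group varies like the other group. They gave -0.63 to -0.45 for PPP3CB, 0.32 to 0.66 for NFATC4, and 3 to 7 higher and 3 to 6 lower genes over the pathway lists. Without a filter on low counts 1358 genes were called higher and 985 lower, beside 1023 and 642 in the main fit. In the pathway lists 12 were then higher and 8 lower. Nothing is read from this, as the number of genes in the fit without a filter is not given. NFATC4 was called in that fit (0.47, adjusted p = 0.0274 by edgeR). Of the same 15356 genes as in the main fit, the replicate block fit called 3440 higher and 3346 lower. Of the 79 tested genes of the pathway lists it called 21 higher and 24 lower. NFATC3 (0.37), NFATC4 (0.48), NFAT5 (-0.40) and PPP3R1 (-0.21) were then called (adjusted p = 0.0014, 7.7e-05, 2.8e-05 and 0.016 by edgeR). Across genes, the differences between replicates 1 and 2 correlated between the groups (r = 0.479), so that same-numbered libraries deviated together. What they shared was not tested, and the replicate numbers are not stated to mark a shared day or batch. With only 2 pairs and no stated pairing, no call is based on the paired fit here. That NFATC3, NFATC4, NFAT5 and PPP3R1 were not called in the main fit therefore depends on leaving the replicate numbers out of it. Of the uncalled genes, KPNB1 turned sign with the size factors of DESeq2 (-0.0053), DESeq2 (-0.014) and no filter (-0.0038), and in fits without a library KPNB1 (-0.046 to 0.053), AKR1B1 (-0.095 to 0.30), ATP2A2 (-0.16 to 0.13), FKBP1A (-0.36 to 0.11) and PPIA (-0.29 to 0.0029) did. The cause was not tested. With 2 libraries a group small changes could be missed, and NFATC2 rests on few reads in Control.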

Other observations

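The transcription factors that bind DNA together with NFAT formed a further list. Of its 18 genes, 15 were tested, 1 was called higher and 1 lower, beside 6.66% and 4.18% of all tested genes, and the median log2(fold change) was 0.04. FOSB, a subunit of AP-1, had 3.17 and 2.68 CPM in Control and 4.86 and 5.80 CPM in TOP2B KD, a log2(fold change) of 0.86 (adjusted p = 0.0348 by edgeR's quasi-likelihood test). Its call was lost with DESeq2 (adjusted p = 0.0825) and without Control replicate 2 or TOP2B KD replicate 2. MEF2D, a factor of muscle and neuronal genes, had 86.8 and 90.1 CPM in Control and 66.5 and 66.6 CPM in TOP2B KD, a log2(fold change) of -0.41 (adjusted p = 0.0477 by edgeR) that was not called in any of the 4 fits without a library. The AP-1 genes FOSL1 and JUN, the most abundant of the list, had log2(fold changes) of 0.28 and -0.32 and were not called.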
